A study of Saccharum hybrid cultivar with 12 samples.

Results

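The stalk transcriptome of ROC22 was compared with that of YT71-210, both after ethephon. ROC22 (HS) is a commercial high-sugar sugarcane variety with 15.0% sucrose, and YT71-210 (MS) is a genotype of moderate sugar content, 12.6% sucrose, that is not grown commercially. The comparison takes the 4 libraries labelled HS_T and MS_T, 2 per genotype, of the 12 libraries of the series, and covers all unigenes. The other libraries hold HS and MS plants sprayed with water (HS_CK and MS_CK) and GT86-887 (LS), a low-sugar genotype with 6.0% sucrose, after either spray (LS_T and LS_CK). Plants were 8 months old. HS_T and MS_T plants had received a foliar spray of ethylene solution (400 mg per L, made from ethephon), and tissue was taken 7 days later. The material was developing stem, 20 cm above the node of a young leaf that had fully expanded. Each genotype is 1 clone grown from stem cuttings, so a difference between HS and MS is a difference between 2 clones and not between sugar classes. Stem tissue holds many cell types, and fewer cells of a type and less RNA per cell cannot be told apart in these values.

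Ethephon enters the plant and breaks down to ethylene, a gaseous hormone that slows elongation and is used to ripen cane. Sucrose reaches the growing stem through the phloem. There it can be cleaved by invertases (sucrose α-glucosidases) or by sucrose synthase, and made again by sucrose phosphate synthase and sucrose phosphatase. The hexoses released feed glycolysis, starch and the cell wall, and sucrose that is kept accumulates in the vacuoles of storage cells. Sugarcane is a highly polyploid hybrid, so a unigene assembled from reads of several genotypes can stand for a gene, for 1 allele or homoeologous copy of it, or for a fragment.

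Expected counts summed to 22692922 and 20854187 in HS_T and to 21636644 and 28747056 in MS_T. The numbers of unigenes with at least 1 count were 87325 and 87332 in HS_T, against 85815 and 96328 in MS_T, whose second library was the deepest. Squared correlations of log10(FPKM + 1) were 0.901 between the HS_T replicates, 0.920 between the MS_T replicates and 0.766 to 0.827 between the genotypes. FPKM is the count scaled by unigene length and library size. Replicates differed by more than sampling noise (chi-square per degree of freedom 15.5 in HS_T and 20.1 in MS_T), so no pair was 1 library under both names. The labels do not say whether replicates came from separate plots. The p-values of the main test rest on the spread between replicate samples in all 12 libraries, and not on HS_T and MS_T alone.

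A block of 471 unigenes stood apart within genotypes. They were picked, after the data had been seen, from the water and LS libraries alone. The rule asked for at least 20 counts over HS_CK replicate 2 and MS_CK replicate 2, with a count in each. The 6 other water and LS libraries were to hold no more than 5% of that sum. These unigenes took 45515 and 416384 counts in HS_T (0.201% and 2.00% of the library), against 3 and 4 counts in MS_T. Under water they took 50 and 128110 counts in HS_CK, against 84 and 35311 counts in MS_CK. The block therefore varied between libraries of the same genotype and spray, with a median CPM ratio of 9.35 in HS_T replicate 2 over HS_T replicate 1. The test described next called none of the 471 (edgeR, 470 at an unadjusted p under 0.05), while DESeq2 called 37 and limma on log2(FPKM + 1) called 0. Leaving the block out gave 7377 calls, which held all of those reported here, and no named unigene is in it. The origin of the block, including whether it is sugarcane RNA, was not tested.

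**Figure D1:**
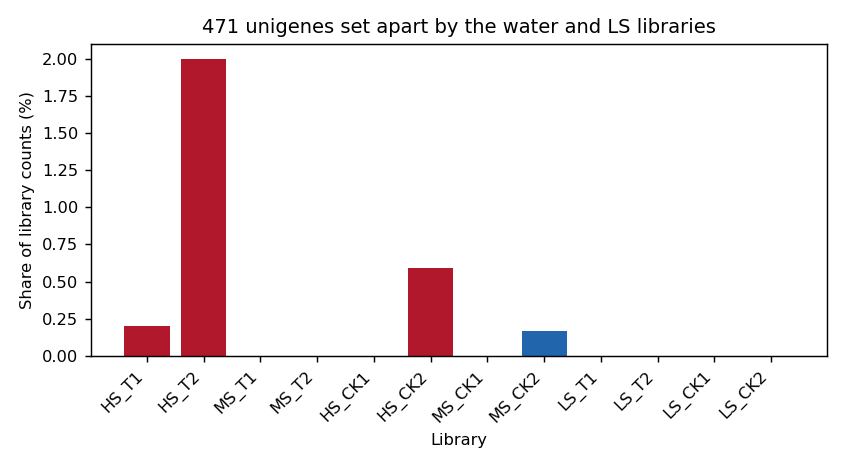
Share of each library's counts (%, bars) that fell on the 471 unigenes set apart, for HS (red), MS (blue) and LS (grey) libraries after ethephon (T) and under water (CK). HS_T replicate 2 stands at 2.00% and HS_T replicate 1 at 0.201%, and both MS_T libraries show no visible bar, with 3 and 4 counts.

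The first question was how many unigenes differed between the genotypes after ethephon. Of 163054 unigenes, 54433 had enough counts to test. Calls needed more than a 2-fold difference and an edgeR quasi-likelihood p-value under 0.005 after Benjamini-Hochberg adjustment over all tested unigenes. In HS_T, 3459 unigenes were higher (6.35% of those tested) and 3044 were lower (5.59%) than in MS_T, 6503 in all (11.9%). All 6503 had non-overlapping libraries, which 34.3% of tested unigenes had in the direction of HS_T and 33.9% in the direction of MS_T. A further 11698 unigenes differed by more than 2-fold without passing the test. The count of calls rests on every library, since it was 2739 with HS_T replicate 1 left out, 2931 with HS_T replicate 2 left out, 3658 with MS_T replicate 1 left out and 2426 with MS_T replicate 2 left out. The larger share of calls on the HS_T side (53.2%) is not a stable feature. It was 47.7% by limma on log2(FPKM + 1), 49.4% with MS_T replicate 1 left out and 47.1% with MS_T replicate 2 left out.

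Many of the called differences were between counts and no counts. The median log2 fold change was 3.36 among the higher and -3.31 among the lower unigenes. Of these, 907 of the higher had no counts in MS_T and 893 of the lower had none in HS_T. With such unigenes placed at their bound against 3 counts over the empty group, the medians were 3.17 and -3.00. Folds over 32 were fitted for 1229 of the higher and 1084 of the lower unigenes. Among called unigenes with a count in all 4 libraries, the median log2 fold change was 2.30 for the 2275 higher and -2.18 for the 1917 lower. These medians describe unigenes that passed a fold limit, and over all tested unigenes the median absolute log2 fold change was 0.587.

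**Figure D2:**
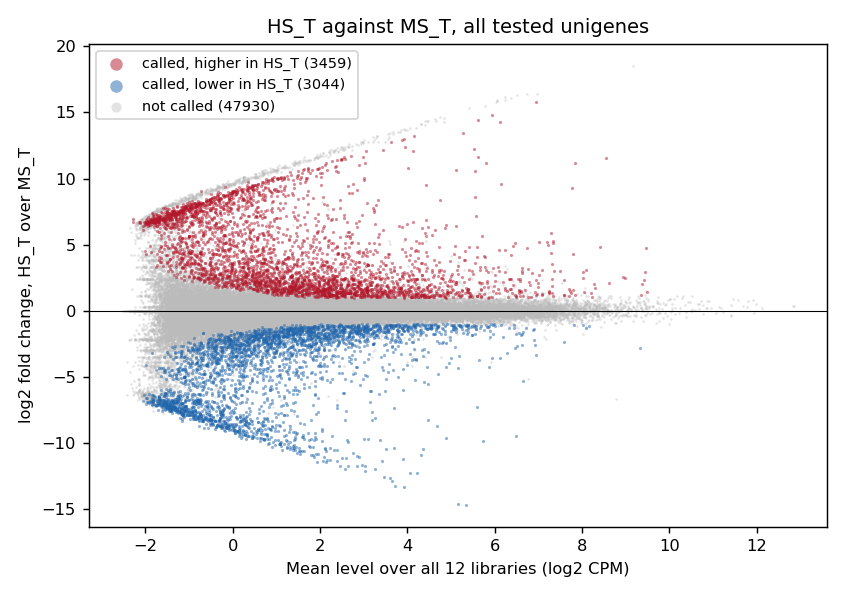
Log2 fold change of HS_T over MS_T (vertical axis) against the mean level over all 12 libraries (log2 CPM, horizontal axis), with 1 point per tested unigene. Called unigenes are red where higher in HS_T (3459) and blue where lower (3044) (the other 47930 are grey).

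The share of unigenes called varied with the mean level (log2 CPM, counts scaled to the library total) and was lower above 4 than below. It was 11.6% up to 0, 16.5% from 0 to 2, 13% from 2 to 4, 6.18% from 4 to 6, 4.07% from 6 to 8 and 4.58% above 8. In the bin from 6 to 8, 89 unigenes were higher in HS_T and 26 were lower, and above 8 the numbers were 19 and 4. Of the 100 unigenes with the highest mean FPKM over the 4 libraries, 4 were called, each of them higher in HS_T, and 11 more differed by over 2-fold without a call. Unigenes called higher took 5.68% and 5.27% of the counts of the HS_T libraries, against 1.33% and 1.29% in MS_T. Those called lower took 0.677% and 0.624% in HS_T, against 2.58% and 3.12% in MS_T. The same calls chose these unigenes, but the water libraries did not enter them other than through the shared estimate of spread. There, the unigenes called higher took 4.79% and 6.13% in HS_CK, against 2.07% and 2.18% in MS_CK.

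The second question was whether the genotypes differed in the same unigenes without ethephon. HS_CK and MS_CK share no library with HS_T and MS_T. Under water, 5532 unigenes were called (10.2%), 3035 higher (5.58%) and 2497 lower (4.59%) in HS_CK than in MS_CK. This count also rests on every library, since it was 3103 with HS_CK replicate 1 left out, 3356 with HS_CK replicate 2 left out, 2218 with MS_CK replicate 1 left out, 2301 with MS_CK replicate 2 left out, and 2113 in a fit of the 4 water libraries alone. Of the 5532, 4368 were also called after ethephon, all in the same direction, which is 67.2% of the ethephon calls and 79.0% of the water calls. This overlap was 2335 with HS_T replicate 1 left out, 2461 with HS_T replicate 2 left out, 2771 with MS_T replicate 1 left out and 2213 with MS_T replicate 2 left out. It was 2729 with HS_CK replicate 1 left out, 2823 with HS_CK replicate 2 left out, 2014 with MS_CK replicate 1 left out and 2140 with MS_CK replicate 2 left out. Of unigenes called after ethephon, 99.3% had the same sign under water, against 77.9% of those not called. Unigenes higher in HS_T had a median log2 fold change of 2.89 under water, and unigenes lower in HS_T one of -2.79. The larger the difference after ethephon, the more often it was called under water. The share was 50.1% for absolute log2 fold changes from 1 to 2, 62.8% from 2 to 3, 66.9% from 3 to 4, 70% from 4 to 5 and 81.9% above 5.

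**Figure D3:**
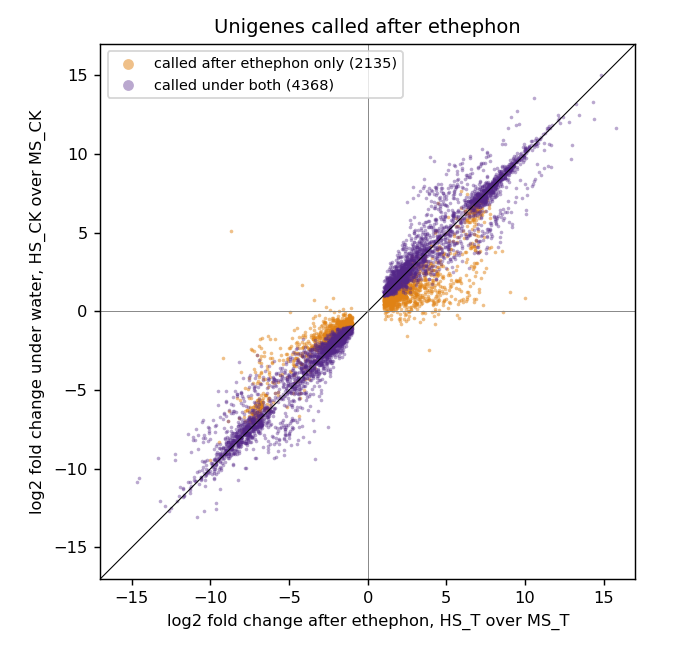
Log2 fold change under water (HS_CK over MS_CK, vertical axis) against that after ethephon (HS_T over MS_T, horizontal axis) for the 6503 unigenes called after ethephon, with the line of equal values. Purple points (4368) were also called under water and orange points (2135) were not, and nearly all points lie in the quadrants of equal sign.

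A call after ethephon and none under water does not show that ethephon changed the difference. The 2135 unigenes called only after ethephon had a median absolute log2 fold change of 2.38 after ethephon and 1.27 under water, and 2089 of them had the same sign in both. The change itself was tested as the HS to MS difference after ethephon minus that under water. No unigene passed (edgeR, smallest adjusted p = 0.209), and 3178 had an unadjusted p under 0.05. DESeq2's Wald test called 48, edgeR with a replicate block called 2 (smallest adjusted p = 0.00375), edgeR with no filter on low counts called 1058, and edgeR with HS_CK replicate 2 left out called 1. Limma on log2(FPKM + 1) or on log2(FPKM + 0.1) called 0.

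Unigenes absent from a genotype formed the extreme of the comparison. HS_T had at least 30 counts of 1439 unigenes of which MS_T had none. Of these, 468 belong to the block set apart, and in 714 the HS_T libraries differed by more than 4-fold. In the other 725, the HS_T libraries lay within 4-fold of each other, a limit set after the data had been seen. Under water, 609 of the 725 again had at least 30 counts in HS_CK and no more than 3 in MS_CK. LS plants after ethephon had at least 30 counts of 220 of them and none of 337. The number without counts in MS_T was 1037 with HS_T replicate 1 left out, 547 with HS_T replicate 2 left out, 1528 with MS_T replicate 1 left out and 1638 with MS_T replicate 2 left out. The reverse case held 920 unigenes, with no counts in HS_T and at least 30 in MS_T. The MS_T libraries lay within 4-fold of each other in 896 of them. Under water, 615 of the 896 had no more than 3 counts in HS_CK and at least 30 in MS_CK. LS plants after ethephon had at least 30 counts of 265 of them and none of 349. The number was 1137 with HS_T replicate 1 left out, 1085 with HS_T replicate 2 left out, 588 with MS_T replicate 1 left out and 377 with MS_T replicate 2 left out.

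The 2 largest differences in either direction among called unigenes with counts in all 4 libraries came close to absence without reaching it. No role is given for these 4 in the sources used here. Unigene c36444_g1 had 3488.84 and 3929.70 FPKM in HS_T (13044 and 13447 counts), against 2.52 and 0.42 FPKM in MS_T (9 and 2 counts). It was also far apart under water, with 4492.59 and 4406.15 FPKM in HS_CK and 5.06 and 0.58 FPKM in MS_CK. Its log2 fold change was 11.54 ± 0.63 (SE, edgeR adjusted p = 2.17e-06) after ethephon and 10.67 under water. Unigene c80729_g2 had 85.90 and 125.10 FPKM in HS_T and 0.08 and 0.06 FPKM in MS_T. In the other direction, c85661_g1 had 0.13 and 0.03 FPKM in HS_T, against 74.82 and 102.92 FPKM in MS_T (log2 fold change -9.82 ± 0.46, edgeR adjusted p = 6.81e-07). Unigene c77792_g1 had 0.01 and 0.03 FPKM in HS_T and 19.30 and 23.98 FPKM in MS_T. All 4 were called in the same direction under water.

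Unigenes of 1 Trinity component, the assembler's unit of related transcripts (the part of the name before g), did not always move together. Of 2604 components with at least 2 tested unigenes and a call, 175 held calls in both directions. Among them is the component of c80729_g2, shown above (3 tested unigenes). Its summed counts gave a log2 fold change of 5.015 (edgeR adjusted p = 8.11e-05), against 11.18 for c80729_g2 alone. With the counts of each component summed, 45 of these 175 were called, against 1092 of the 2429 components with calls in 1 direction. Opposite differences offset each other in a sum, so a lower share follows from how the 175 were chosen. The 175 fell to 41 with HS_T replicate 1 left out, 39 with HS_T replicate 2 left out, 63 with MS_T replicate 1 left out and 32 with MS_T replicate 2 left out. Whether such unigenes are alleles, copies or fragments was not tested.

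Count and FPKM gave different pictures of a small set of unigenes. The count divided by the FPKM gives, up to the library total, the length by which the authors' method scaled a unigene in that library. Of 26405 unigenes with at least 20 counts and an FPKM of at least 0.5 in each HS and MS library, 169 had such a length more than 2-fold apart between HS_T and MS_T without overlap. Of these, 156 had the same sign under water, and 101 differed by less than 2-fold in count. By count 31.4% of the 169 were called, against 7.04% of all 26405. The fold changes given here are of counts.

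The study names 80 unigenes in its text, some with an enzyme or family and some only with a class such as transcription factor. It chose them from these libraries, so their directions are not independent evidence, here and in the lists that follow. After ethephon 23 were called higher and 18 lower in HS_T, 38 were not called, and 1 (c42181_g1) had no counts in HS_T or MS_T. Over all tested unigenes, 6.35% were higher and 5.59% lower. The names c42181_g1 and c101169_g1 are close to c42182_g1 and c101169_g3, also named. The study gives c42181_g1 and c101169_g1 only where it reports quantitative PCR. Its primer list holds c42182_g1 and c101169_g3 but neither of these names. That list also lacks c99770_g1, another unigene reported there, so whether the names are misprints is not settled and they are kept as written. Of the 79 tested, 68 had the same sign under water. Of the 41 calls, 21 held whichever of the 4 libraries was left out, and 5 were lost whichever was left out.

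**Figure D4:**
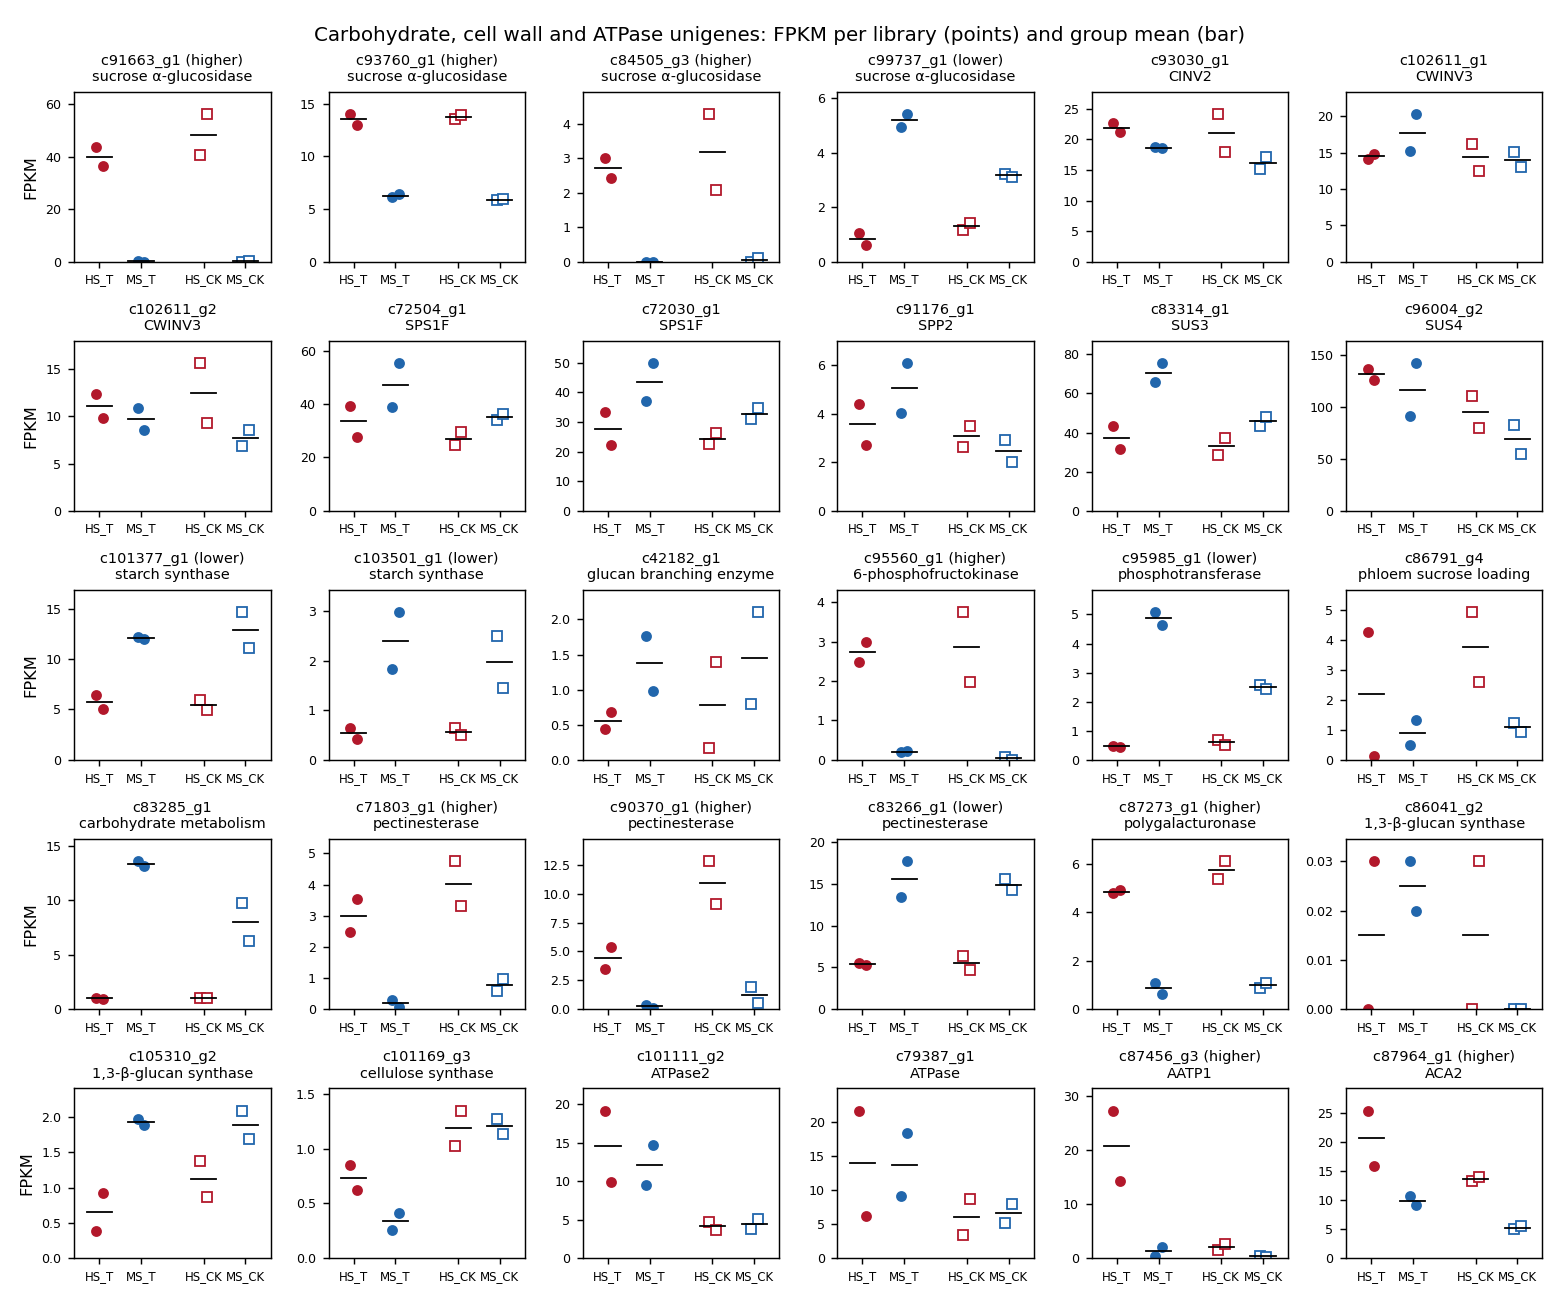
FPKM per library (points) and group mean (bar) of 30 unigenes of carbohydrate metabolism, the cell wall and ATPases, with HS in red and MS in blue, after ethephon (filled circles, left) and under water (open squares, right). The words higher and lower mark calls in HS_T against MS_T, such as c91663_g1 at 43.68 and 36.42 FPKM in HS_T and 0.33 and 0.00 in MS_T.

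Enzymes that cleave sucrose held the largest difference among the carbohydrate unigenes. Of 7 unigenes, 3 were higher in HS_T, 1 was lower and 3 were not called, against 6.35% higher and 5.59% lower over all tested unigenes (median log2 fold change 0.37, and 0 over all tested). All 4 calls were among the unigenes annotated as sucrose α-glucosidase, which splits sucrose into glucose and fructose. Unigene c91663_g1 had 43.68 and 36.42 FPKM in HS_T and 0.33 and 0.00 FPKM in MS_T. It rested on 4758 counts in HS_T against a single count in MS_T, a ratio of 6126 with an exact 95% counting interval of 1099 to 242000. Unigene c84505_g3 had 3.01 and 2.42 FPKM in HS_T (66 counts) and no counts in MS_T, and was at least 28.3-fold higher in HS_T when 3 counts over MS_T are taken as the floor. These intervals and floors cover counting error only. Both unigenes were thus nearly or wholly unseen in MS_T, and both were called in the same direction under water.

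Unigene c93760_g1, the third sucrose α-glucosidase higher in HS_T, was expressed in both genotypes. It had 14.01 and 13.01 FPKM in HS_T, against 6.11 and 6.46 FPKM in MS_T (log2 fold change 1.37 ± 0.12, edgeR adjusted p = 3.11e-05). Limma on log2(FPKM + 1) gave c93760_g1 a log2 fold change of 0.994, just under the fold limit, and did not call it (adjusted p = 0.000681). The fourth, c99737_g1, went the other way, with 1.05 and 0.61 FPKM in HS_T and 4.96 and 5.41 FPKM in MS_T (log2 fold change -3.30 ± 0.24, edgeR adjusted p = 1.03e-05). The unigenes of this annotation therefore did not share a direction. No call of these 4 was lost when any library was left out.

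The other invertases were not called. CINV2 (c93030_g1), a cytosolic invertase, had 22.68 and 21.12 FPKM in HS_T, against 18.78 and 18.52 FPKM in MS_T (log2 fold change 0.37 ± 0.17, edgeR adjusted p = 0.132). The cell wall invertase CWINV3, which cleaves sucrose outside the cell, is given 2 unigenes. For c102611_g1 the values were 14.19 and 14.81 FPKM in HS_T and 15.19 and 20.28 FPKM in MS_T. For c102611_g2 they were 12.32 and 9.82 FPKM in HS_T and 10.85 and 8.57 FPKM in MS_T, and the groups overlapped.

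None of the 5 unigenes for sucrose synthase and the sucrose-making enzymes was called by edgeR (3 at an unadjusted p under 0.05), DESeq2 or limma, and their log2 fold changes lay between -0.77 and 0.31. Sucrose synthase splits sucrose reversibly into UDP-glucose and fructose. Of its unigenes, SUS3 (c83314_g1) had 43.38 and 31.52 FPKM in HS_T and 65.88 and 75.37 FPKM in MS_T (log2 fold change -0.77 ± 0.21, edgeR adjusted p = 0.0173). Its groups did not overlap, but the difference was under the fold limit. SUS4 (c96004_g2) was the most abundant, with 136.35 and 126.04 FPKM in HS_T and 90.86 and 141.70 FPKM in MS_T. Sucrose phosphate synthase, which makes sucrose 6-phosphate, is given 2 unigenes. SPS1F (c72504_g1) had 39.36 and 27.60 FPKM in HS_T and 38.96 and 55.24 FPKM in MS_T, and c72030_g1 had 33.31 and 22.17 FPKM in HS_T and 37.18 and 49.80 FPKM in MS_T. SPP2 (c91176_g1), which removes the phosphate in the last step of sucrose synthesis, had 4.41 and 2.71 FPKM in HS_T and 4.01 and 6.07 FPKM in MS_T. The genotypes overlapped in FPKM for SUS4, SPP2 and c72504_g1.

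Of 8 unigenes of starch, sugar phosphates and transport, 1 was higher in HS_T, 3 were lower, 3 were not called and 1 had no counts, against 6.35% higher and 5.59% lower over all tested unigenes (median log2 fold change -1.16 over the 7 listed unigenes tested). Both starch synthases, which lengthen the glucan chains of starch, were lower in HS_T. Unigene c101377_g1 had 6.42 and 5.09 FPKM in HS_T and 12.20 and 12.01 FPKM in MS_T (log2 fold change -1.16 ± 0.24, edgeR adjusted p = 0.00416). Unigene c103501_g1 had 0.65 and 0.43 FPKM in HS_T and 1.83 and 2.97 FPKM in MS_T (log2 fold change -2.00 ± 0.33, edgeR adjusted p = 0.0013). Neither call was firm. For c101377_g1 the adjusted p was 0.0283 with HS_T replicate 1 left out, 0.039 with HS_T replicate 2 left out, 0.0253 with MS_T replicate 1 left out and 0.0206 with MS_T replicate 2 left out. For c103501_g1 it was 0.00695 with HS_T replicate 1 left out, 0.0165 with HS_T replicate 2 left out and 0.0138 with MS_T replicate 2 left out.

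The 6-phosphofructokinase c95560_g1, an enzyme that commits hexose phosphate to glycolysis, was higher in HS_T. It had 2.48 and 3.00 FPKM in HS_T, against 0.20 and 0.22 FPKM in MS_T (log2 fold change 3.75 ± 0.48, edgeR adjusted p = 0.000307, and 0.00638 with MS_T replicate 2 left out). With the counts of its component summed (2 tested unigenes), the log2 fold change of c95560_g1 was 0.09 (edgeR adjusted p = 0.694). The phosphotransferase c95985_g1 was lower, with 0.49 and 0.45 FPKM in HS_T and 5.07 and 4.65 FPKM in MS_T (log2 fold change -2.71 ± 0.26, edgeR adjusted p = 4.66e-05). The glucan branching enzyme c42182_g1, which adds branches to starch, had 5 and 7 counts in HS_T and 19 and 14 counts in MS_T and was not called.

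In 2 unigenes of this group the FPKM and the count disagreed. Unigene c83285_g1 had 1.02 and 0.93 FPKM in HS_T and 13.59 and 13.17 FPKM in MS_T, which looks like a wide gap. Its counts were 32 and 28 in HS_T and 22 and 55 in MS_T, with a log2 fold change of 0.05 ± 0.33 (edgeR adjusted p = 0.947). The length implied by count and FPKM was 1382 and 1444 bases in HS_T, against 74.8 and 145 bases in MS_T. Unigene c86791_g4, annotated for phloem sucrose loading, had 4.29 and 0.12 FPKM in HS_T and 0.51 and 1.32 FPKM in MS_T. Those values came from 3 and 1 counts in HS_T and 6 and 21 counts in MS_T (log2 fold change -2.29 ± 0.63, edgeR adjusted p = 0.0197), so its replicates disagree in FPKM and it was not called.

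Of 7 cell wall unigenes, 3 were higher in HS_T, 1 was lower and 3 were not called, against 6.35% higher and 5.59% lower over all tested unigenes (median log2 fold change 1.44). The 4 calls were all of enzymes that act on pectin. Pectinesterase removes methyl groups from pectin, and 2 of its 3 unigenes were higher in HS_T. Unigene c71803_g1 had 2.47 and 3.52 FPKM in HS_T and 0.30 and 0.07 FPKM in MS_T (log2 fold change 4.20 ± 0.53, edgeR adjusted p = 0.000268). Unigene c90370_g1 had 3.46 and 5.42 FPKM in HS_T and 0.32 and 0.13 FPKM in MS_T (log2 fold change 4.46 ± 0.80, edgeR adjusted p = 0.00217). Without a library, the adjusted p of c90370_g1 was 0.00511 (HS_T replicate 1), 0.0121 (HS_T replicate 2), 0.011 (MS_T replicate 1) and 0.0342 (MS_T replicate 2). The more abundant c83266_g1 was lower in HS_T, at 5.58 and 5.27 FPKM, than in MS_T, at 13.41 and 17.70 FPKM (log2 fold change -1.37 ± 0.18, edgeR adjusted p = 0.0003, and 0.00533 with HS_T replicate 1 left out).

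Polygalacturonase c87273_g1, which cuts the pectin backbone, had 4.77 and 4.92 FPKM in HS_T and 1.09 and 0.64 FPKM in MS_T (log2 fold change 2.45 ± 0.32, edgeR adjusted p = 0.000363, and 0.00599 with MS_T replicate 2 left out). Under water its values were 5.37 and 6.09 FPKM in HS_CK and 0.86 and 1.09 FPKM in MS_CK, and all 4 calls of the group were made in the same direction there. Unigenes for synthesis of wall glucans were not called. Cellulose synthase c101169_g3 had 0.85 and 0.62 FPKM in HS_T and 0.26 and 0.41 FPKM in MS_T. The study also lists c101169_g3 among its transcription factors, and it is counted here only with the cell wall. Its log2 fold change was 1.44 ± 0.33 (edgeR adjusted p = 0.00813). DESeq2 called it (adjusted p = 0.00226), while limma on log2(FPKM + 1) gave 0.38 (adjusted p = 0.364). Its component sum gave 0.16 after ethephon (edgeR adjusted p = 0.793), and the unigene had 0.20 under water (edgeR adjusted p = 0.654). The 1,3-β-glucan synthase c105310_g2 had 0.39 and 0.92 FPKM in HS_T and 1.97 and 1.88 FPKM in MS_T, and c86041_g2 had a single count in HS_T and 2 counts in MS_T, too few to compare.

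Of 4 ATPase unigenes, which the study examined for membrane transport, 2 were higher in HS_T and 2 were not called, against 6.35% higher and 5.59% lower over all tested unigenes (median log2 fold change 0.79). AATP1 (c87456_g3) had 27.34 and 14.25 FPKM in HS_T and 0.48 and 1.97 FPKM in MS_T (log2 fold change 4.17 ± 0.70, edgeR adjusted p = 0.00142). Under water it had 1.45 and 2.56 FPKM in HS_CK and 0.44 and 0.21 FPKM in MS_CK, a log2 fold change of 2.65 in the same direction that was not called (edgeR adjusted p = 0.0671). The change in that difference had an unadjusted p of 0.286 and an adjusted p of 0.947 by edgeR. The adjusted p after ethephon was 0.00941 with HS_T replicate 1 left out, 0.0129 with MS_T replicate 1 left out and 0.00673 with MS_T replicate 2 left out. With the counts of its component summed (3 tested unigenes), AATP1 had a log2 fold change of 0.75, under the fold limit (edgeR adjusted p = 0.00232). ACA2 (c87964_g1), named after a calcium pump of Arabidopsis, had 25.46 and 15.96 FPKM in HS_T and 10.76 and 9.09 FPKM in MS_T (log2 fold change 1.21 ± 0.21, edgeR adjusted p = 0.00167). For ACA2 it was 0.0159 with HS_T replicate 1 left out and 0.0242 with MS_T replicate 2 left out. ATPase2 (c101111_g2) and the ATPase c79387_g1 overlapped between the genotypes. The first had 19.17 and 9.89 FPKM in HS_T and 9.45 and 14.69 FPKM in MS_T, and the second 21.72 and 6.20 FPKM in HS_T and 9.11 and 18.41 FPKM in MS_T.

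**Figure D5:**
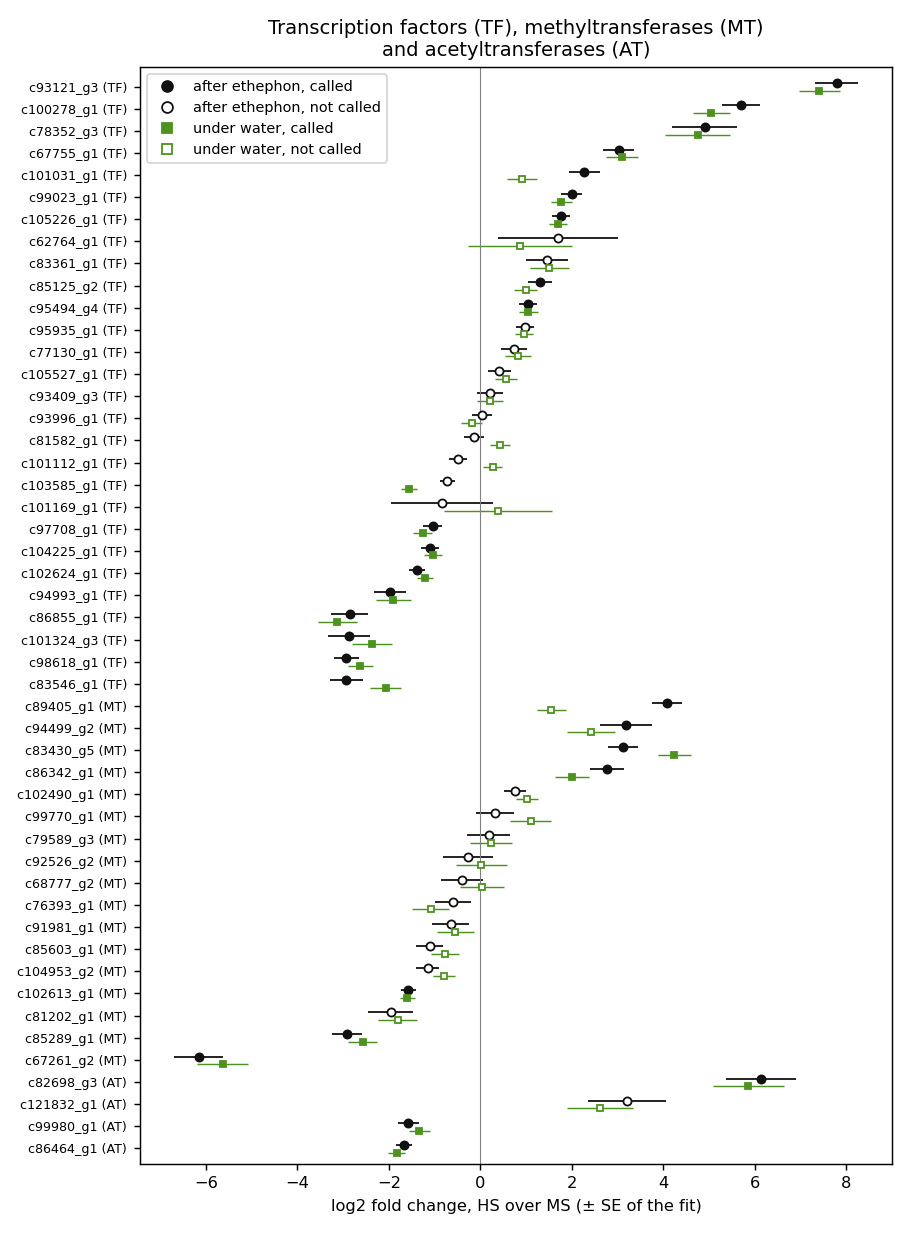
Log2 fold change of HS over MS with its standard error for 28 transcription factor (TF), 17 methyltransferase (MT) and 4 acetyltransferase (AT) unigenes, after ethephon (black circles) and under water (green squares). Filled symbols were called, and values range from -6.16 (c67261_g2) to 7.79 (c93121_g3) after ethephon, with the water value beside it on the same side of 0 in most rows.

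Of 28 transcription factor unigenes, 9 were higher in HS_T, 8 were lower and 11 were not called, against 6.35% higher and 5.59% lower over all tested unigenes (median log2 fold change 0.31). The study names a family for 3 of them. The heat shock factor c101031_g1, of a family that switches on chaperone genes, had 105.65 and 140.29 FPKM in HS_T and 20.53 and 31.03 FPKM in MS_T (log2 fold change 2.28 ± 0.34, edgeR adjusted p = 0.000689). Under water it had 98.04 and 119.68 FPKM in HS_CK and 52.85 and 64.38 FPKM in MS_CK, a log2 fold change of 0.91 that was not called. The test of the change in that difference gave no call (edgeR adjusted p = 0.781). Its call after ethephon was lost at adjusted p values of 0.00512 with HS_T replicate 2 left out, 0.00872 with MS_T replicate 1 left out and 0.00654 with MS_T replicate 2 left out.

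The WRKY factor c97708_g1, of a plant family known for defence and stress responses, was lower in HS_T. It had 26.71 and 15.47 FPKM in HS_T and 42.53 and 54.06 FPKM in MS_T (log2 fold change -1.04 ± 0.20, edgeR adjusted p = 0.00323). The adjusted p was 0.0286 with HS_T replicate 2 left out, 0.0053 with MS_T replicate 1 left out and 0.0359 with MS_T replicate 2 left out. The ethylene responsive factor c81582_g1, of the family that acts at the end of the ethylene pathway, was not called. It had 8.33 and 11.66 FPKM in HS_T and 9.92 and 14.55 FPKM in MS_T (log2 fold change -0.14 ± 0.21, edgeR adjusted p = 0.666), so the groups overlapped.

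The largest differences among transcription factors were in unigenes whose family is not named. Unigene c93121_g3 had 16.39 and 13.31 FPKM in HS_T and 0.05 and 0.08 FPKM in MS_T, which rested on 568 counts in HS_T against 3 in MS_T, a ratio of 244 with an exact 95% counting interval of 83.0 to 1186. Unigene c100278_g1 had 5.43 and 5.91 FPKM in HS_T and 0.14 and 0.10 FPKM in MS_T (log2 fold change 5.70 ± 0.42, edgeR adjusted p = 1.03e-05). Unigene c78352_g3 had 2.99 and 2.38 FPKM in HS_T and 0.12 and 0.00 FPKM in MS_T. These were near absence in MS_T, while others were expressed in both genotypes. Unigene c67755_g1 had 22.15 and 21.27 FPKM in HS_T and 2.81 and 2.83 FPKM in MS_T (log2 fold change 3.03 ± 0.34, edgeR adjusted p = 0.000128). Unigene c105226_g1 had 70.94 and 78.27 FPKM in HS_T and 48.74 and 31.40 FPKM in MS_T. By count its log2 fold change was 1.76 ± 0.20 (edgeR adjusted p = 0.000141). Limma on log2(FPKM + 1) gave 0.91 and did not call it (adjusted p = 0.0095). Unigene c99023_g1 had 22.68 and 31.81 FPKM in HS_T and 6.93 and 6.01 FPKM in MS_T. The most abundant of the list, c95935_g1, had 170.19 and 185.26 FPKM in HS_T and 114.07 and 90.64 FPKM in MS_T and lay just under the fold limit (log2 fold change 0.98 ± 0.20).

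On the lower side, c83546_g1, c98618_g1, c101324_g3 and c86855_g1 had log2 fold changes between -2.93 and -2.86. Of these, c98618_g1 had 0.51 and 0.54 FPKM in HS_T and 3.97 and 5.04 FPKM in MS_T (edgeR adjusted p = 4.47e-05). The MS_T replicates of c101324_g3 were far apart, at 3.05 and 8.76 FPKM, with 0.34 and 0.51 FPKM in HS_T, and its adjusted p was 0.0181 with HS_T replicate 1 left out, 0.0064 with HS_T replicate 2 left out and 0.0116 with MS_T replicate 2 left out. That of c86855_g1 was 0.00552 with MS_T replicate 2 left out. The remaining lower unigenes had smaller differences, c94993_g1 with a log2 fold change of -1.98, c102624_g1 with -1.38 and c104225_g1 with -1.10. With the counts of its component summed (2 tested unigenes), c94993_g1 had a log2 fold change of 0.06 (edgeR adjusted p = 0.802). For c98618_g1 the component sum (2 tested unigenes) gave -0.94 (edgeR adjusted p = 0.0108). Calls close to the limits depended on single libraries. Those of c95494_g4, c85125_g2 (both higher) and c104225_g1 were lost whichever of the 4 was left out, with adjusted p values up to 0.0325, 0.0478 and 0.028. That of c94993_g1 was lost at 0.0135 with HS_T replicate 1 left out, 0.0222 with HS_T replicate 2 left out and 0.0211 with MS_T replicate 2 left out, and that of c102624_g1 at 0.00642 with HS_T replicate 1 left out.

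Of 17 methyltransferase unigenes, 4 were higher in HS_T, 3 were lower and 10 were not called, against 6.35% higher and 5.59% lower over all tested unigenes (median log2 fold change -0.40). Methyltransferases move methyl groups onto DNA, proteins or small molecules, and the substrate of each unigene is not given. Unigene c83430_g5 was the most abundant, with 192.79 and 314.48 FPKM in HS_T and 23.96 and 23.94 FPKM in MS_T (log2 fold change 3.12 ± 0.34, edgeR adjusted p = 0.000153). Unigene c89405_g1 had 151.01 and 95.51 FPKM in HS_T and 8.75 and 6.70 FPKM in MS_T (log2 fold change 4.08 ± 0.32, edgeR adjusted p = 1.55e-05). Under water it was low in both genotypes, at 8.22 and 7.06 FPKM in HS_CK and 3.56 and 1.86 FPKM in MS_CK (log2 fold change 1.56, not called). The HS to MS difference was thus 2.52 ± 0.44 larger on the log2 scale after ethephon, with an unadjusted p of 0.000131 by edgeR but an adjusted p of 0.406 over all tested unigenes. The size rests on high values in HS_T in both replicates.

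The other methyltransferase calls were of less abundant unigenes. Unigene c94499_g2 had 28.29 and 57.31 FPKM in HS_T and 7.80 and 2.60 FPKM in MS_T, and its adjusted p by edgeR was 0.00203, 0.0156 with HS_T replicate 2 left out and 0.0266 with MS_T replicate 2 left out. Unigene c86342_g1 had 3.40 and 2.08 FPKM in HS_T and 0.34 and 0.37 FPKM in MS_T, with an adjusted p of 0.000443 and of 0.00802 with MS_T replicate 2 left out. With the counts of its component summed (2 tested unigenes), c94499_g2 had a log2 fold change of 0.12 (edgeR adjusted p = 0.505). On the lower side, c67261_g2 had 0.07 and 0.07 FPKM in HS_T and 5.02 and 7.19 FPKM in MS_T. It rested on 2 counts in HS_T against 209 in MS_T, a ratio of 81.2 in favour of MS_T with an exact 95% counting interval of 22.2 to 675. Unigene c85289_g1 had 0.44 and 0.42 FPKM in HS_T and 2.86 and 4.27 FPKM in MS_T, and c102613_g1 had 2.45 and 2.45 FPKM in HS_T and 8.09 and 8.28 FPKM in MS_T. These 3 were called in the same direction under water.

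Of 4 acetyltransferase unigenes, which add acetyl groups, 1 was higher in HS_T, 2 were lower and 1 was not called, against 6.35% higher and 5.59% lower over all tested unigenes (median log2 fold change 0.81). Unigene c82698_g3 had 5.16 and 6.38 FPKM in HS_T and 0.00 and 0.63 FPKM in MS_T, which rested on 124 counts in HS_T against 2 in MS_T, a ratio of 79.8 with an exact 95% counting interval of 21.6 to 667. Unigene c86464_g1 had 11.39 and 8.98 FPKM in HS_T and 38.52 and 39.02 FPKM in MS_T (log2 fold change -1.67 ± 0.17, edgeR adjusted p = 8.34e-05). Unigene c99980_g1 had 0.99 and 0.88 FPKM in HS_T and 3.17 and 3.00 FPKM in MS_T (log2 fold change -1.58 ± 0.23). Its adjusted p by edgeR was 0.000689, and 0.00841 with HS_T replicate 1 left out, 0.00916 with HS_T replicate 2 left out and 0.00561 with MS_T replicate 1 left out. The 3 were called in the same direction under water, while c121832_g1, with 9 counts in HS_T against a single one in MS_T, was not called after either spray.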

How the data were processed

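Total RNA was poly-A selected and sequenced on an Illumina HiSeq instrument. The authors removed adapters and low-quality or short reads, built a Trinity assembly from the pooled clean reads, kept 1 unigene per subcomponent (its longest transcript) and mapped reads to these unigenes with RSEM (version not given in the sources used here). The deposited expected counts carry no scaling between libraries. The deposited FPKM values were scaled by the authors for unigene length and library size. Technical replicates had been merged (their number differs between the labels and the methods), biological replicates had not. No genome, annotation or unigene sequence was used here, and tissue markers were not analysed, since roles were taken only from the text of the study.

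Expected counts were rounded. With R 4.3.3 and edgeR 4.0.16, filterByExpr (minimum count 10 over 6 groups) chose the unigenes, libraries were scaled by TMM, and 1 quasi-likelihood model (glmQLFit, glmQLFTest) with a coefficient per group took all 12 libraries (6 residual degrees of freedom). The limits on adjusted p and fold follow the study's methods. The standard error is the log2 fold change divided by the square root of F. Counting intervals are exact binomial (scipy 1.17.1), and figures used matplotlib 3.10.9. An exact permutation test of 2 against 2 cannot go below p = 0.333 and was not used. Scripts were tested on simulated data. Precision is set by counts for rare unigenes and by the spread between replicates for abundant ones.

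The members, lists and tests were chosen with earlier results of these data known. Named are all unigenes in the study's text, plus the 2 largest differences each way among other called unigenes with a count in all 4 libraries. Alternatives were DESeq2 1.42.0 (size factors, Wald test), limma 3.58.1 on log2(FPKM + 1) and log2(FPKM + 0.1), only the libraries compared, a replicate block, each library left out, no filter, a looser threshold, component sums and summed replicates.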

Additional observations from a re-analysis of the deposited data

How the results depend on the processing

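The number of unigenes called between HS_T and MS_T (6503) changed most with the threshold, the filter and the replicates. An adjusted p under 0.05 without a fold limit gave 17170, every unigene with a count 12789, summed replicates under random sampling 14632, component sums 4203, and leaving out 1 library 2426 to 3658, where the lone library is assumed to vary like the other groups. DESeq2 gave 7343, its size factors 6531, limma 5105 (log2(FPKM + 1), which shifted the median of all unigenes by -0.0792) and 6135 (log2(FPKM + 0.1), a shift of -0.111), only the libraries compared 4955, and leaving out the unigenes set apart 7377. Under water (5532) the values were 14291 without the fold limit, 10340 without the filter, 12775 with summed replicates, 3567 with component sums, 2113 with only the libraries compared and 2218 to 3356 without 1 library. Calls shared by both comparisons (4368) numbered 10863, 7906 and 2721 without the fold limit, without the filter and with component sums, and 2014 to 2823 without 1 library.

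The change in the HS to MS difference with ethephon (0 calls) had 48 by DESeq2, 1058 without the filter and 0 to 1 without 1 library. Components with calls in both directions (175) numbered 633 without the fold limit, 200 by DESeq2 and 32 to 63 without 1 library. Unigenes without counts in MS_T numbered 3418 at a minimum of 10 counts in HS_T, 564 at 100, 547 to 1638 without 1 library, and 725 of the 1439 had HS_T libraries within 4-fold. Those without counts in HS_T numbered 2615 at 10, 284 at 100, and 377 to 1137 without 1 library. The cause of these shifts was not tested.

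Replicate numbers did not pair HS_T with MS_T (correlation of replicate deviations -0.0704, with 2 pairs only). It was 0.375 between HS_CK and MS_CK, 0.284 between HS_T and MS_CK and 0.239 between HS_T and HS_CK, the 3 groups whose replicate 2 libraries held most counts of the block set apart, and the part of the block in it was not tested. A replicate block gave 7017 calls after ethephon, 5143 under water, 4138 in both and 2 for the change in the difference (smallest adjusted p = 0.00375). It called 464 of the 471 unigenes set apart, and the fit without the filter called 470.

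Of the named unigenes, 11 had a log2 fold change of the other sign under at least 1 alternative, and none of these 11 is among the calls reported. The 1 that was called with the other sign is c83285_g1, at -2.86 by limma on log2(FPKM + 1), against 0.05 by count, and c86791_g4 had 0.38 by limma, against -2.29 by count. Limma ended 10 calls among the named unigenes, only the libraries compared 5, DESeq2 0, and leaving out 1 library 9 to 17. Having 2 libraries per genotype limits what can be called, and unigenes with few counts were not testable.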
